A study of Mus musculus with 7 samples.

Results

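The genes described here are 9 mouse CC chemokines that draw monocytes and other leukocytes: Ccl2, Ccl7, Ccl8 and Ccl12 of the monocyte chemoattractant protein (MCP) group, Ccl3 and Ccl4 of the macrophage inflammatory protein (MIP) group, Ccl6 and Ccl9, and the eotaxin Ccl24. They were taken by symbol from an array table in which 19938 genes have a row with a single gene symbol. Each of the 9 genes has exactly 1 such row. RNA of macrophages sorted by flow cytometry from the lamina propria of the colon was hybridised to 7 arrays, all from 6-week-old C57BL/6 mice. Il10ra_mKO (2 arrays) stands for mice with floxed Il10ra, the ligand-binding chain of the interleukin-10 receptor, and Cre recombinase under the control of Cx3cr1. They are set against 3 arrays of resident WT, which carry GFP in 1 Cx3cr1 allele (Cx3cr1gfp/+) and whose cells, like the Il10ra_mKO cells, are labelled resident macrophages. Il10_KO (1 array) stands for IL10-/- mice with the same GFP reporter, set against 1 WT array with that reporter, and the cells of both are labelled CX3CR1hi. Il10ra_mKO and WT therefore also differ in Cre against GFP at Cx3cr1, and no array carries Cre with an intact Il10ra, so allele and deletion cannot be told apart. The labels do not say whether the arrays of a group came from separate mice, so the p-values measure only how far these samples spread, and that spread may be technical.

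CC chemokines are small secreted proteins that bind G protein-coupled receptors on leukocytes and set the direction in which these cells move. The MCP group acts largely through CCR2, the receptor by which Ly6C-high monocytes leave the bone marrow and enter the gut, where they mature into resident macrophages. Interleukin-10 restrains inflammatory gene expression in these macrophages. All values below are log2 expression levels as deposited or differences between them, and levels of different genes are not set against each other, because each has its own probes. Probes of close paralogues, here above all those of the MCP genes, can share signal.

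The labels were checked first. Il10ra stood at 8.05 and 7.04 in the Il10ra_mKO arrays, against 10.56, 10.76 and 11.12 in resident WT, a difference of -3.27 ± 0.38 (SE, adjusted p = 0.243 by limma). Il10 was at 10.75 in the Il10_KO array and 11.04 in its WT partner. Its level is no check of that label, since the position of its probes with respect to the deletion is not stated in the sources used here. All 11 measured macrophage markers, with C1qb the brightest, exceeded log2 5.86 (the table's median value) in at least 1 array. Epithelial transcripts, with Krt8 the brightest, were present in every array. The mean level of the 11 markers was 10.50 and 8.63 in Il10ra_mKO, against 10.48, 10.85 and 10.49 in resident WT, and 10.63 in Il10_KO against 11.21 in CX3CR1hi WT. Of the 11 eosinophil and mast cell markers, 10 lay at or below 5.86 in all arrays. The mean level of 10 measured monocyte markers was 7.97 and 7.35 in Il10ra_mKO, against 7.12, 7.32 and 7.35 in resident WT, and that of 7 B and plasma cell markers 7.43 and 8.13 in Il10ra_mKO, against 7.25, 7.05 and 7.13 in resident WT. In sorted bulk RNA, fewer cells of a type and less RNA per cell cannot be told apart.

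In the RefSeq gene order of mouse chromosome 11, Ccl2, Ccl7, Ccl11, Ccl12 and Ccl8 follow one another, and further along Ccl5, Ccl9, Ccl6, Ccl3 and Ccl4 do. Only Ccl24 among the 9 lies elsewhere, on chromosome 5. RefSeq promoter sequences (GRCm38.p6) were matched for 5 of the 9 genes, Ccl3, Ccl6, Ccl8, Ccl9 and Ccl12. The 250 bases before the start of Ccl8, Ccl12 and Ccl9 are shown 5′ to 3′ on the gene's strand, the first pair because these neighbours of the MCP group lay on opposite sides of their WT means in Il10ra_mKO array 1 and the last because its levels differed least. Capitals mark matches to TATAAA (the TATA box) and to TGANTCA (the AP-1 site), on either strand.
Ccl8, chr11:82114935-82115184, plus strand: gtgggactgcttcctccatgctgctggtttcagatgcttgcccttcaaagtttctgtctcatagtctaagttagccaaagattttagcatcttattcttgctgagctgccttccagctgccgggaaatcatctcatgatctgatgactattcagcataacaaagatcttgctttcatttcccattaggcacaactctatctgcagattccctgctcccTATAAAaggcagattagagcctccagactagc
Ccl12, chr11:82101595-82101844, plus strand: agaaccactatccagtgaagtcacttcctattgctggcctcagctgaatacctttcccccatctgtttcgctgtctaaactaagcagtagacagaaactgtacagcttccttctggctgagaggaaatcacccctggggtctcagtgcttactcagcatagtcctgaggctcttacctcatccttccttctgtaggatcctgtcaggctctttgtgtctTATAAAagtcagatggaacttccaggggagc
Ccl9, chr11:83578637-83578886, minus strand: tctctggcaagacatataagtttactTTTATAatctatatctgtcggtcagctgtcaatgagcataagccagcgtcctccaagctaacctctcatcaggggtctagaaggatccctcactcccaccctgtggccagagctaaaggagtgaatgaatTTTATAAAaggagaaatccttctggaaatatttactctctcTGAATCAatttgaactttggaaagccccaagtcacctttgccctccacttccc
Counted from the start of the gene, a TATAAA match began at position -32 in Ccl8 and at -31 in Ccl12. In Ccl9 matches to TATAAA or its complement began at -224, -94 and -92, the last pair overlapping, and TGAATCA began at -53. TATAAA was found on either strand in 13% of 27025 RefSeq promoters of this length and TGANTCA in 6.87%. In these windows of the 5 genes there was no match to a form of the NF-kB site (GGGA, any 2 bases, then TTCC) found in 1.17% of promoters, or to TTCNNNGAA, a STAT site form found in 7.18%.

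In Il10ra_mKO, none of the 9 chemokines passed the test against resident WT, and the widest gap between group means was 1.98-fold, for Ccl24. By limma, with p-values adjusted over all 19938 genes, the adjusted p of the members lay between 0.46 and 0.902, and 1 gene of all, or 0.00502%, passed. At an unadjusted p under 0.05, 1 member was lower and 0 were higher, against 3.86% lower, 4.06% higher and 7.92% in either direction of all genes. A difference of 2-fold or more was seen in 0 members, beside 0.953% of all genes higher and 1.43% lower. Both Il10ra_mKO arrays lay below all resident WT arrays for Ccl7 and Ccl24 (8.50% of all genes) and above them for Ccl8 (8.92%), while for the other 6 members the groups overlapped. The median change of the 9 was -0.06, beside 0.00 over all genes. Their median absolute change was 0.28, beside 0.14 over the 10558 genes (53.0% of all) above 5.86 in at least 2 arrays. All 9 members were above 5.86 in at least 2 arrays, and all but Ccl24 in every array.

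**Figure D1:**
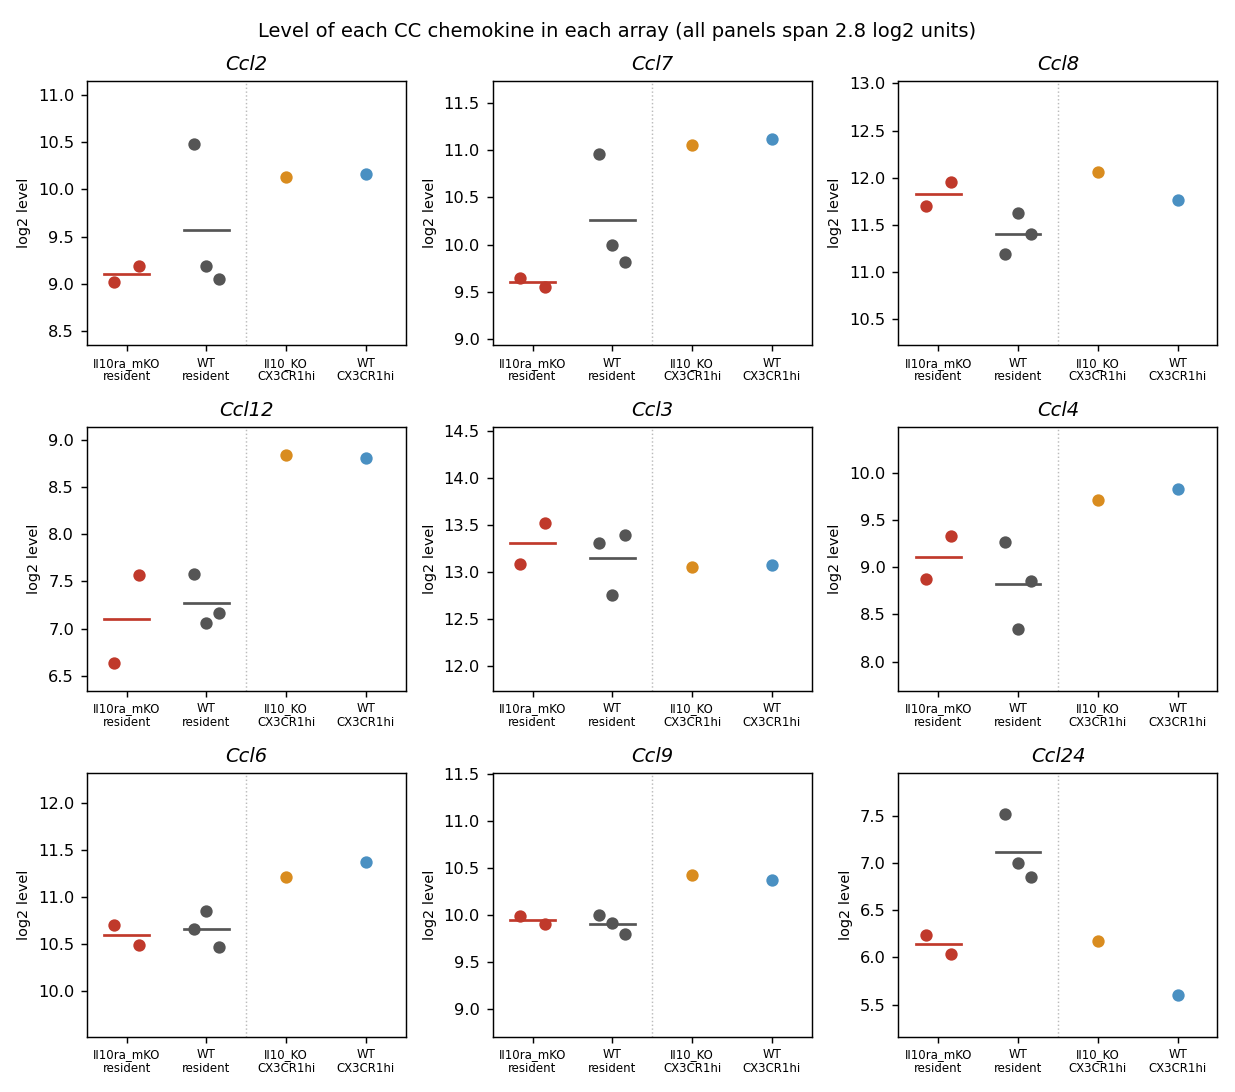
Log2 level of the 9 chemokine genes (vertical axis, the same span in each panel) in the 7 arrays. Each point is an array and each horizontal line a group mean, with Il10ra_mKO left of resident WT and Il10_KO left of CX3CR1hi WT. Ccl24 is the gene whose resident groups are farthest apart (6.24 and 6.04 in Il10ra_mKO, 6.85 to 7.52 in WT).

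Among the MCP genes, Ccl2 encodes the main CCR2 ligand for monocytes. Its level was 9.02 and 9.19 in Il10ra_mKO, against 10.48, 9.19 and 9.05 in resident WT. WT array 1 was high, and the other WT arrays lay beside the mutant ones. The difference was -0.47 ± 0.52 (SE, 95% interval -1.95 to 1.00, adjusted p = 0.783), and -0.02 without WT array 1.

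Ccl7, a neighbour of Ccl2 that encodes a ligand of CCR2 and other receptors, was at 9.65 and 9.55 in Il10ra_mKO, against 10.96, 10 and 9.82 in resident WT. Again WT array 1 was high, and both mutant arrays lay below all WT arrays, by 0.17 at the nearest. The difference was -0.66 ± 0.41 (95% interval -1.81 to 0.49, adjusted p = 0.678), and -0.31 without WT array 1.

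Ccl8, whose mouse protein acts through CCR8, was at 11.70 and 11.95 in Il10ra_mKO, against 11.19, 11.62 and 11.40 in resident WT. It was the single member with both mutant arrays above all WT arrays, by 0.08 at the nearest, and here WT array 1 was the lowest. The difference was 0.42 ± 0.17 (95% interval -0.06 to 0.90; limma, unadjusted p = 0.0708, adjusted p = 0.678). Without WT array 2 its unadjusted p by limma was 0.0416.

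Ccl12, a mouse CCR2 ligand, was at 6.64 and 7.57 in Il10ra_mKO, against 7.58, 7.06 and 7.17 in resident WT. Il10ra_mKO array 1 lay below all WT arrays and array 2 within their range, and the direction rested on array 1: the difference was -0.16 ± 0.36 with both (adjusted p = 0.89), 0.30 without Il10ra_mKO array 1 and -0.62 without array 2. Ccl8 and Ccl12, whose promoters are printed above, thus stood together in Il10ra_mKO array 2 (0.55 and 0.30 above their WT means) and apart in array 1 (0.30 above and 0.62 below).

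Ccl3 and Ccl4 encode MIP-1alpha and MIP-1beta, which macrophages make soon after activation. Ccl3 was at 13.09 and 13.52 in Il10ra_mKO, against 13.31, 12.76 and 13.39 in resident WT (difference 0.15 ± 0.27, adjusted p = 0.858). Ccl4 was at 8.88 and 9.33 in Il10ra_mKO, against 9.27, 8.35 and 8.85 in resident WT (difference 0.28 ± 0.34, adjusted p = 0.783). For both genes WT array 2 was the lowest of the 5 arrays and Il10ra_mKO array 2 the highest. Their 95% intervals ran from -0.62 to 0.91 for Ccl3 and from -0.67 to 1.24 for Ccl4. The direction of Ccl3 turned without WT array 2 (-0.05) or without Il10ra_mKO array 2 (-0.07). The difference of Ccl4 was 0.05 without WT array 2, 0.06 without Il10ra_mKO array 2, 0.50 without Il10ra_mKO array 1 and 0.51 without WT array 1.

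Ccl6 and Ccl9, ligands of CCR1 in the mouse, were the members with the narrowest intervals. Ccl6 was at 10.70 and 10.49 in Il10ra_mKO, against 10.66, 10.85 and 10.47 in resident WT, and Ccl9 at 9.99 and 9.90 in Il10ra_mKO, against 10, 9.92 and 9.80 in resident WT. Both mutant arrays lay within the WT range for both genes. The differences were -0.06 ± 0.15 for Ccl6 (95% interval -0.48 to 0.36) and 0.04 ± 0.08 for Ccl9 (-0.19 to 0.27), with adjusted p of 0.902 and 0.875. For Ccl9 the interval leaves out a change of 1.5-fold or more in either direction.

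Ccl24 encodes eotaxin-2, a ligand of CCR3 that attracts eosinophils and that macrophages make under interleukin-4. Its level was 6.24 and 6.04 in Il10ra_mKO, against 7.52, 7.00 and 6.85 in resident WT. Both mutant arrays lay below all WT arrays, by 0.61 at the nearest. The difference was -0.99 ± 0.24 (SE, 95% interval -1.67 to -0.30), a 1.98-fold lower level, with an unadjusted p of 0.0164 and an adjusted p of 0.46 by limma. The unadjusted p was 0.0679 without Il10ra_mKO array 1 and 0.102 without array 2, each of which leaves 1 mutant array assumed to vary like the WT arrays. Its levels in the mutant lay little above 5.86, and robust multi-array averaging (RMA), which the submitters' notes name, draws low values together. The numbers at the end of the sample titles form runs, 54 to 56 and 67 to 68, and Ccl24 was lower in Il10ra_mKO in both, with differences of -1.03 in the first and -0.81 in the second. Ccl7 differed by -0.83 and -0.27 in these runs and Ccl8 by 0.30 and 0.55, whereas Ccl2 (-0.82 and 0.13) and Ccl12 (-0.67 and 0.40) had opposite signs.

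Markers of other cells differed beside Ccl24. Of the 10 fibroblast and muscle markers, 7 lay below all resident WT arrays in both Il10ra_mKO arrays, beside 8.50% of all genes, as did 6 of 11 epithelial and 3 of 7 endothelial markers. Of the 10 neutrophil markers, 6 lay above all resident WT arrays, beside 8.92% of all genes. The mean level of the fibroblast and muscle list was 6.81 and 6.81 in Il10ra_mKO, against 7.76, 7.99 and 7.43 in resident WT. It was 6.64 in Il10_KO, against 7.41 in CX3CR1hi WT. Ccl24 stood at 6.17 in Il10_KO and at 5.60, below 5.86, in CX3CR1hi WT. Dcn, the brightest gene of the fibroblast and muscle list, stood at 9.26 and 9.68 in Il10ra_mKO, against 11.26, 11.39 and 10.63 in resident WT. Of the 11 eosinophil and mast cell markers, 0 lay outside the WT range in both mutant arrays. The part of these cells in the Ccl24 value was not tested.

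**Figure D2:**
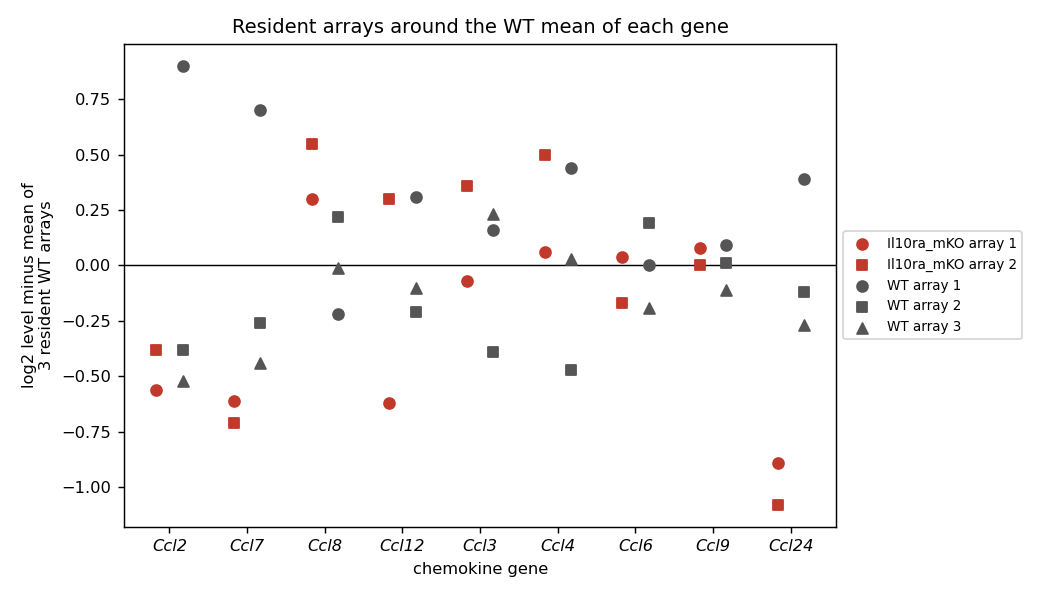
Log2 level of each chemokine in the 5 resident arrays minus the mean of the 3 resident WT arrays (vertical axis), by gene (horizontal axis). Red points are Il10ra_mKO arrays 1 and 2 and grey points WT arrays 1, 2 and 3. WT array 1 stands 0.90 above the WT mean for Ccl2 and 0.70 for Ccl7.

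The chemokines varied widely among the WT arrays themselves. The SD over the 3 resident WT arrays had a median of 0.34 over the 9 members, beside 0.12 over the 10558 genes above 5.86 in at least 2 arrays. It was 0.785 for Ccl2, larger than in 99.4% of those genes, 0.612 for Ccl7 (98.6%) and 0.46 for Ccl4 (96.6%), and 0.102 for Ccl9 (41.9%). WT array 1 held the highest WT level for 6 of the 9 members, beside 27.5% of those genes. These values are a description of 3 arrays. In Il10ra_mKO the arrays lay 0.17 apart for Ccl2 and 0.10 for Ccl7, against ranges of 1.42 and 1.14 in WT, and 0.93 apart for Ccl12, against 0.52 in WT.

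In Il10_KO, the CX3CR1hi cells of mice without interleukin-10, the chemokines lay close to the single WT array of the same label. For 7 of the 9 members the arrays differed by less than 0.2. Such small differences were common, with a median absolute difference of 0.14 over all genes and 0.20 over the 10558 genes above 5.86 in at least 2 arrays. Ccl2 was at 10.13 in Il10_KO and 10.16 in WT, Ccl7 at 11.06 in Il10_KO and 11.12 in WT, and Ccl12 at 8.84 in Il10_KO and 8.81 in WT. Ccl3 was at 13.05 in Il10_KO and 13.07 in WT, and Ccl4 at 9.71 in Il10_KO and 9.83 in WT. Ccl6 was at 11.21 in Il10_KO and 11.37 in WT, and Ccl9 at 10.42 in Il10_KO and 10.37 in WT. The members that differed more were Ccl8, at 12.06 in Il10_KO and 11.76 in WT, and Ccl24, at 6.17 in Il10_KO and 5.60 in WT.

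With 1 array on each side, the spread in the fit comes from the resident groups. The SD over the resident WT arrays had a median of 0.08 over all genes, 0.12 over the 10558 genes and 0.34 over the 9 members. Shares of all genes passing are therefore no yardstick for the members here. The lone arrays are assumed to vary like the resident ones. On that footing 0 members passed by limma (adjusted p of 0.48 to 0.99) and 0 did at an unadjusted p under 0.05, beside 7.90% and 22.0% of all genes (10.4% higher and 11.6% lower). Of all genes 1576 passed, and 2 did when only genes above 5.86 in at least 2 arrays were tested. The median change of the 9 was -0.01, beside 0.03 over all genes, and the median absolute change 0.06, beside 0.20 over the 10558 genes. At least a 2-fold difference was seen in 0 members, beside 0.692% of all genes higher and 1.22% lower. The intervals were wide where WT arrays had varied: -2.32 to 2.25 for Ccl2 and -1.84 to 1.72 for Ccl7, against -0.31 to 0.40 for Ccl9. Ccl8 differed by 0.29 ± 0.26 and Ccl24 by 0.58 ± 0.37 (adjusted p = 0.609 and 0.48).

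**Figure D3:**
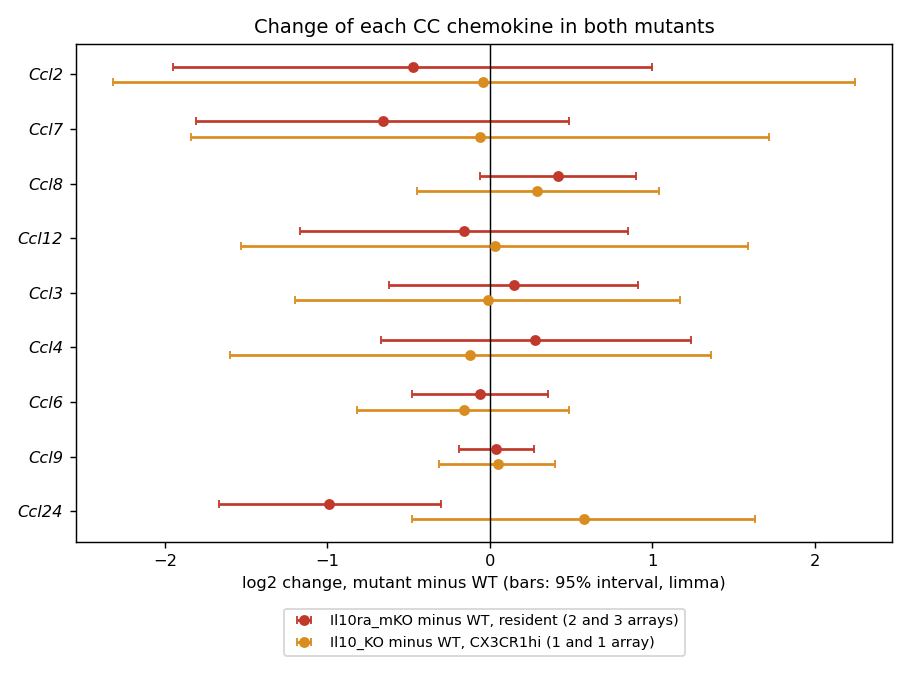
Log2 change of each chemokine (horizontal axis) for Il10ra_mKO minus WT in the resident arrays (red, upper of each pair) and Il10_KO minus WT in the CX3CR1hi arrays (orange, lower). Points are fitted changes and bars their 95% intervals from limma; Ccl24 in Il10ra_mKO is the one change whose interval leaves out 0.

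Whether both mutant effects differ was tested as the Il10ra_mKO effect minus the Il10_KO effect, which share no array. The second effect has 1 array on each side, whose spread is assumed to be that of the resident groups. Shares of all genes passing are again no yardstick for the members. For Ccl24 this difference was -1.56 ± 0.45 (95% interval -2.82 to -0.31; limma, unadjusted p = 0.0264, adjusted p = 0.22), and its CX3CR1hi WT level of 5.60 lay below 5.86. In the other 8 members it lay between -0.60 and 0.40, with adjusted p from 0.892 for Ccl7 to 1 for Ccl9. Over all genes 4.70% passed at the adjusted threshold, where 0 members did. At an unadjusted p under 0.05 it was lower for 7.36% of genes, higher for 8.49% and either for 15.8%, and it was 2-fold or more for 0.517% (lower, Ccl24 among them) and 0.331% (higher).

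Levels of the members under each sort label in WT are set side by side as a description only. The CX3CR1hi WT array lay above all 3 resident WT arrays for 6 members and below them for 1. Ccl12 stood 1.54 above the resident WT mean there, Ccl4 1.01, Ccl7 0.86, Ccl6 0.71, Ccl9 0.47 and Ccl8 0.36, whereas Ccl24 stood at -1.53 from it. Ccl2 and Ccl3 lay within the resident range. The share of all genes outside the resident WT range was not counted, so these counts are not read as a trait of the members. The upper quartile of all values was also higher, 8.26 in the CX3CR1hi WT array against 7.93 to 7.97 in resident WT. The extraction kit follows the sort label as far as the protocol numbers the samples, and 1 WT array carries the CX3CR1hi label, so these differences cannot be told apart from the kit and have no test.

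Some other chemokines differed between Il10ra_mKO and resident WT by more than any of the 9 members. Of 27 listed, 25 were measured. At an unadjusted p under 0.05, 4 were higher and 3 lower, beside 4.06% and 3.86% of all genes, 0 passed adjusted, and the median change was 0.11. In Il10_KO, with 1 array on each side, the median change of the 25 was 0.05. Of them 5 were at least 2-fold higher and 0 at least 2-fold lower, beside 0.692% and 1.22% of all genes. Ccl5, a T cell attractant and the chromosomal neighbour of Ccl9, was at 12.66 and 12.09 in Il10ra_mKO, against 9.56, 9.08 and 9.62 in resident WT (2.96 ± 0.27, adjusted p = 0.208). Cxcl9, which interferon-gamma induces, was at 13.13 and 13.15 in Il10ra_mKO, against 10.98, 11.18 and 11.69 in resident WT (1.86 ± 0.25, adjusted p = 0.258). In Il10_KO against CX3CR1hi WT, Ccl5 differed by 1.58 and Cxcl9 by 1.14. With 1 array on each side, these are given without a call for any of the 25. At the other end were Pf4, platelet factor 4, at 9.64 and 10.19 in Il10ra_mKO against 11.42, 11.50 and 11.07 in resident WT (-1.42 ± 0.24), and Ccl28, an epithelial chemokine, at 9.54 and 8.82 in Il10ra_mKO against 9.88, 10.42 and 10.18 in resident WT (-0.98 ± 0.30). Cxcl2, a neutrophil attractant, differed by 0.26 ± 0.37. Ccl11, the eotaxin gene between Ccl7 and Ccl12, was at 7.36 and 7.42 in Il10ra_mKO, against 8.06, 7.53 and 7.45 in resident WT, and was named for its place after its values were seen.

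**Figure D4:**
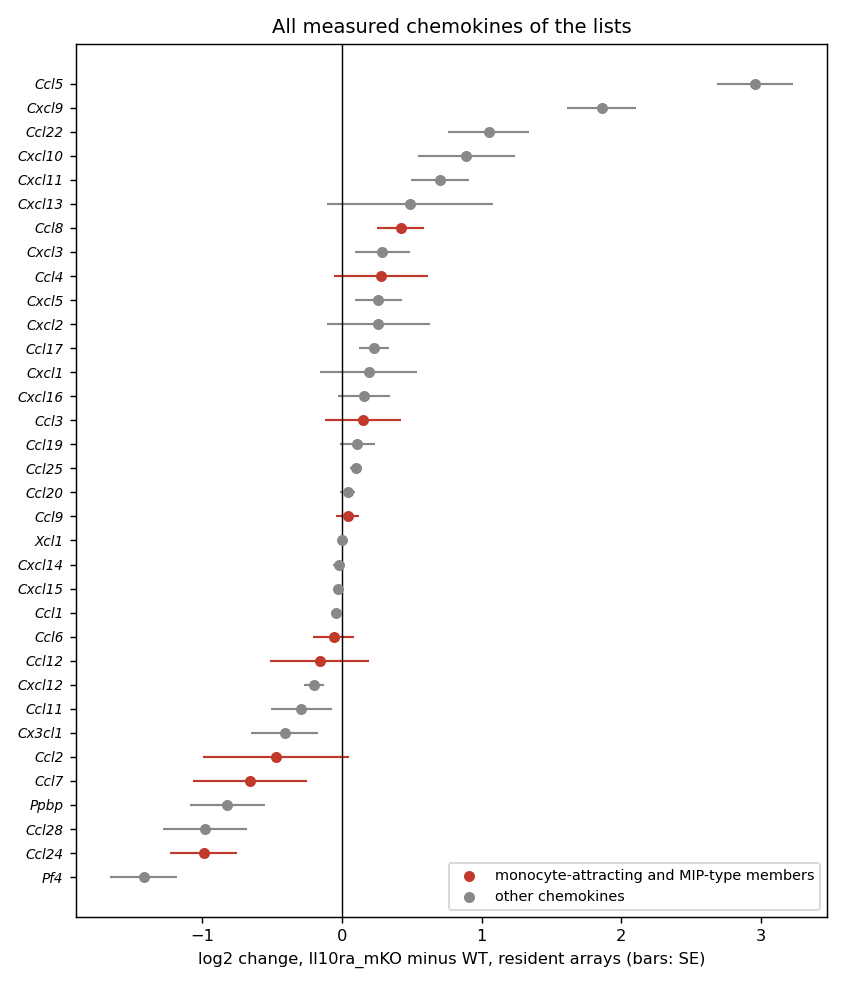
Log2 change in Il10ra_mKO minus WT of the resident arrays (horizontal axis, bars are SE) for the 9 members (red) and 25 other measured chemokines (grey), ordered by change. Ccl5 and Cxcl9 lie at the upper end, and the members lie between Ccl24 (-0.99) and Ccl8 (0.42).

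Of the receptors that read these ligands, Ccr2, which marks incoming monocytes, was at 10.65 and 10.64 in Il10ra_mKO, against 9.75, 10.54 and 11.33 in resident WT (0.10 ± 0.52). WT arrays spanned more than the mutant arrays did. Ccr1 differed by -0.02, and Ccr3 and Ccr8 lay below 5.86 in every array. In the list of 22 receptors and scavengers 21 were measured, with a median change of 0.09. At an unadjusted p under 0.05, 2 were higher and 2 lower, beside 4.06% and 3.86% of all genes. The higher ones were Ccr7, the receptor for lymph node homing (2.31 ± 0.50), and Xcr1 (0.74 ± 0.13). The lower ones were Cx3cr1, whose locus carries the GFP or Cre insertion, and the atypical receptor gene Ackr3. Cx3cr1 was at 10.11 and 10.44 in Il10ra_mKO, against 10.70, 10.74 and 10.85 in resident WT (-0.49 ± 0.13). Ackr3 differed by -0.24 ± 0.03, with levels of 4.67 to 5.18, below 5.86 in every array. Ccrl2, with the highest signal of the list, differed by 0.82 ± 0.40 without reaching an unadjusted p of 0.05.

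The 7 genes listed for the IL-10 receptor and STAT3, all measured, had a median change of 0.13 in Il10ra_mKO. At an unadjusted p under 0.05, 1 (Il10ra) was lower and 0 were higher, beside 3.86% and 4.06% of all genes. Il10rb, the second receptor chain, was at 10.68 and 11.26 in Il10ra_mKO, against 11.02, 11.02 and 11.10 in resident WT. In the list of NF-kB and interferon regulators all 21 measured genes of 23 had a positive change in Il10ra_mKO, beside 48.4% of all genes and 55.7% of the 10558, with a median of 0.36. At an unadjusted p under 0.05, 5 of them were higher (4.06% of all genes), and 0 passed adjusted. In Il10_KO 20 of the 21 had a positive change, beside 56.3% and 60.8%, with a median of 0.17 and 0 at an unadjusted p under 0.05. In Il10ra_mKO, Irf7 (1.09 ± 0.19) and Irf1 (1.07 ± 0.24), interferon regulatory factors, led the list, and the cytokine gene Il1b differed by 0.60 ± 0.31. In the list of 12 genes of the type 2 cytokine response, to which Ccl24 responds in macrophages, the median in Il10ra_mKO was 0.03. At an unadjusted p under 0.05, 2 were higher and 2 lower, beside 4.06% and 3.86% of all genes. Retnla, which interleukin-4 induces, was at 7.59 and 6.64 in Il10ra_mKO, against 9.86, 10.01 and 9.02 in resident WT (-2.51 ± 0.47, adjusted p = 0.374). Mrc1, the mannose receptor, was at 11.25 and 11.84 in Il10ra_mKO, against 12.42, 12.26 and 12.28 in resident WT (-0.78 ± 0.21). Pdcd1lg2, a ligand of PD-1, differed by 2.20 ± 0.35 and Socs1 by 0.71 ± 0.03. Socs1 was at 5.63 and 5.58 in Il10ra_mKO, below 5.86 as in the other arrays. In Il10_KO against CX3CR1hi WT, with 1 array on each side, Pdcd1lg2 differed by 2.07, Mrc1 by -0.10 and Socs1 by 0.98. Retnla stood at 5.49 in Il10_KO and 5.41 in CX3CR1hi WT, both below 5.86, where a lower level could not be seen.

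The gene most like each member was sought among 16928 genes. The measure was the root mean square difference over the 7 arrays, after the WT mean of the sort label was taken from each gene. The lone CX3CR1hi WT array is its own mean, so it cannot tell genes apart. The nearest of so many genes is a description only. For Ccl2 the most alike gene was Ccl7 (0.16 log2). For Ccl7 it was Has1, a hyaluronan synthase gene (0.13), also highest in WT array 1 (6.10, against 5.26 and 5.13 in the other resident WT arrays and 5.03 and 4.94 in Il10ra_mKO). For Ccl8 it was Sharpin (0.06), for Ccl12 Tns1 (0.11), for Ccl3 Ccnl1 (0.07), and for Ccl4 Slc41a2 (0.11). Ccl24 was most like Igfbp4, which encodes a binding protein of insulin-like growth factors (0.17). Igfbp4 stood at 8.51 and 8.58 in Il10ra_mKO, against 9.62, 9.49 and 8.97 in resident WT, and at 9.98 in Il10_KO against 9.48 in CX3CR1hi WT. For Ccl6 and Ccl9, which differed little between mutant and WT, it was Dll4 (0.02) and Aass (0.01), at 5.36 to 5.87 and at 4.17 to 4.96.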

How the data were processed

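The series measured gene expression on 7 Affymetrix arrays of biotin-labelled total RNA. The deposited log2 values (35399 rows, from 3.55 to 14.8) were made with RMA and Partek, per the submitters' processing notes; the sources used here give no versions or genome build and do not say whether RMA was run on all arrays at once. Upper quartiles were 7.93 to 8.01 in the resident arrays and 8.26 and 8.30 in the CX3CR1hi arrays. Samples 1 and 2 were extracted with a miRNeasy kit and the others with RNeasy Micro, per the labels' protocols.

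The probe table gives 21789 rows 1 symbol, 1621 several and 11989 none. Of the first, 21698 matched RefSeq (GRCm38.p6, used for names, gene order and promoters), with 0 symbols changed. The row with the highest mean stood for each of the 999 genes with several rows.

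The test was limma 3.58.1 in R 4.3.3 (lmFit, eBayes with trend) on 4 group means over all 7 arrays, with 3 residual and 0.831 prior degrees of freedom. P-values were two-sided and Benjamini-Hochberg adjusted over 19938 genes, with a threshold of 0.05. The script was tested on simulated data. The number of arrays limits the precision. Replicate numbers follow accession order and pair nothing. The members and lists were chosen with earlier results of these data known, so no test over a list was made. Beyond the members, Il10ra and Il10, the rule named from each gene list the highest signal and the 2 largest changes in each direction at an unadjusted p under 0.05, and from each marker list the highest signal (and, per member, the gene most like it, without predicted, small RNA and receptor-segment genes). Ccl11, Ccr1, Ccr3 and Ccr8 were added after their values were seen. Alternatives were a brightness filter, mean rows, no trend, robust fitting, quantile and median scaling, runs of title numbers as a block, leaving out arrays, the resident arrays alone, and all WT arrays together.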

Additional observations from a re-analysis of the deposited data

Results flagged for a closer look

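Ccl24 was lower in Il10ra_mKO than in resident WT (6.24 and 6.04, against 7.52, 7.00 and 6.85) and higher in Il10_KO than in CX3CR1hi WT (6.17, against 5.60). The Il10ra_mKO effect minus the Il10_KO effect was -1.56 ± 0.45 (limma, unadjusted p = 0.0264, adjusted p = 0.22). The Il10_KO effect has 1 array on each side, assumed to vary like the resident arrays, and the CX3CR1hi WT level lay below 5.86, so the size of the difference is uncertain. Its unadjusted p was 0.0581 without WT array 2, 0.0725 without Il10ra_mKO array 1 and 0.0938 without Il10ra_mKO array 2.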

How the results depend on the processing

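The labels give no replicate numbers to pair by. Runs of title numbers, which each hold both resident genotypes, were fitted as a block and changed no call of a member (Ccl24 in Il10ra_mKO -0.93, limma, unadjusted p = 0.0241). Over 14 alternatives the members' changes in both comparisons and their difference were recomputed 342 times: 322 kept the direction, 20 turned, and 0 passed the adjusted threshold. Ccl24 in Il10ra_mKO ran from -1.12 to -0.79 (unadjusted p of 0.00215 to 0.102). With arrays left out, Il10ra_mKO values ran from -0.62 to 0.30 for Ccl12, -0.07 to 0.36 for Ccl3, -0.17 to 0.04 for Ccl6 and -0.01 to 0.09 for Ccl9, and differences of both effects from -0.66 to 0.27 for Ccl12, -0.69 to 0.02 for Ccl2 and -0.05 to 0.38 for Ccl3. Quantile scaling turned Ccl9 (-0.02 in Il10ra_mKO, -0.04 in Il10_KO) and Ccl12 in Il10_KO (-0.02). Median centring turned Ccl2 (0.01) and Ccl3 (0.03) in Il10_KO, and made 1 member, Ccl8, higher at an unadjusted p under 0.05 and 2 members above all resident WT arrays. With all 4 WT arrays together, which mixes sort labels, Il10_KO values were 0.41 for Ccl2, 0.59 for Ccl7, 0.63 for Ccl4, 0.37 for Ccl6 and -0.57 for Ccl24, which turned, and 1.19 for Ccl12, 0.56 for Ccl8, 0.40 for Ccl9 and -0.08 for Ccl3, which did not, with a median of 0.41.

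With arrays left out, 2 to 4 members lay below and 1 to 3 above all resident WT arrays, and 0 to 1 were lower and 0 to 1 higher at an unadjusted p under 0.05 in Il10ra_mKO, 0 to 1 higher in Il10_KO and 0 to 1 lower in the difference. The 4 members below were counted without Il10ra_mKO array 2 and the 3 above without array 1. Each count sets 1 mutant array against the WT range, and 1 array falls outside a range more readily than a pair does. The shares of 8.50% and 8.92% of all genes hold for both mutant arrays. No such share was counted with arrays left out, so these counts are not read as a trait of the members. Counts over all genes depended on the settings, and the cause was not tested. For Il10ra_mKO, where 1 gene passed, 12 did with the brightness filter, 4 without a trend, 114 with quantile scaling, 146 with median centring, 0 with runs of title numbers as a block, and 0 to 267 with arrays left out (946 to 3775 at an unadjusted p under 0.05). For Il10_KO, where 1576 passed, 2, 758, 21, 31 and 446 did under the same settings in that order, 1043 with robust fitting, 0 with all WT arrays together and 559 to 2788 with arrays left out. At an unadjusted p under 0.05 its 4384 genes became 1210 with the filter, 2464 with quantile scaling, 2825 with median centring and 2393 with all WT arrays together. For the difference, where 937 passed, 1, 30, 8, 17 and 0 did under those settings, 387 with robust fitting and 0 to 2200 with arrays left out, and its 3160 genes at an unadjusted p under 0.05 became 532 with the filter, 1385 with quantile scaling and 1250 with median centring.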
